A study of Mus musculus with 6 samples.

Results

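The subunits of the mitochondrial respiratory chain that are encoded in the nucleus were compared between wild type and Cgref1 knockout mouse liver. They were taken by gene symbol, as every gene in the deposited table whose symbol begins with Nduf followed by a, b, c, s or v and a digit, with Uqcr, with Cox followed by a digit from 4 to 8 and a letter from a to c, or with Atp5, together with Sdha, Sdhb, Sdhc and Sdhd. This gave 82 of the 15953 genes, of which 37 belong to complex I, 4 to complex II, 8 to complex III, 16 to complex IV and 17 to complex V. Ndufa4 and Ndufa4l2 were counted with complex IV, where the NDUFA4 protein is found. Assembly factors named Ndufaf were left out, and no gene of the mitochondrial genome was analysed here.

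The respiratory chain sits in the inner mitochondrial membrane. Complex I takes electrons from NADH and complex II takes them from succinate, both pass them to ubiquinone, complex III moves them on to cytochrome c, and complex IV gives them to oxygen. Complexes I, III and IV pump protons, and complex V, the ATP synthase, uses the resulting gradient to make ATP. Hepatocytes are rich in mitochondria and depend on this chain to burn fatty acids and to pay for gluconeogenesis and urea synthesis. Complexes I, III, IV and V combine subunits from nuclear and from mitochondrial genes, whereas complex II is wholly nuclear-encoded.

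RNA was sequenced from 3 liver samples labelled wild type and 3 labelled Cgref1 knockout, all of the C57BL/6 strain and with no treatment named. The age and sex of the animals, the cells in which Cgref1 was deleted and the position of the deletion are not stated in the labels. The labels call the 3 samples of each group biological replicates but do not tie them to separate animals, so the p-values measure the spread between these samples. Cgref1, which encodes a secreted protein with EF-hand domains, was counted 7, 7 and 19 times across wild type replicates 1 to 3, against 7, 12 and 10 times across the knockout replicates. Its CPM (counts per 1e6 counts) averaged 0.598 ± 0.38 against 0.552 ± 0.145 (SD, n = 3 each), so the transcript count did not separate the genotypes. Every library labelled as knockout is therefore called knockout-labelled here.

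The libraries held 17627734 to 18366443 counts. The labels name the tissue as liver and the cell type as hepatocytes. All 10 hepatocyte markers were present, with a summed level of 82730 to 112700 CPM in wild type and 86260 to 109100 CPM in the knockout-labelled libraries. The 10 Kupffer cell markers summed to 282.6 to 313.2 CPM in wild type and to 353.9 to 381.6 CPM in knockout-labelled libraries, without overlap, and the 8 stellate cell markers to 235 to 310.4 and 201.4 to 236.4 CPM. Of 14 genes of skeletal and heart muscle, 7 were in the table, and together they reached 10 to 17 counts in a wild type library and 11 to 20 in a knockout-labelled one. A list of 20 intestinal genes gave sums, without Fabp2, of 238, 75 and 481 counts for wild type replicates 1 to 3, against 50, 59 and 88 for the knockout-labelled replicates; Fabp2 was set aside after the values were seen. The part of these cell markers in the values below was not tested, and in whole tissue fewer cells of a type cannot be told apart from less RNA per cell.

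Some subunits come from more than one gene, and the sequences show how well sequencing reads can tell these genes apart. The c subunit, the membrane ring that turns as protons pass through the ATP synthase, is encoded by Atp5g1, Atp5g2 and Atp5g3, whose products differ in the leader peptide that is cut off on import. In the GENCODE M21 transcripts the coding sequence of the mature c subunit, 228 bases with the stop codon, was 85.1% identical between Atp5g1 and Atp5g2, 79.8% between Atp5g1 and Atp5g3 and 78.5% between Atp5g2 and Atp5g3. The leaders were 58.1% to 59.5% identical. The same 90-base stretch of the mature part is shown for each gene from 5′ to 3′, with the 26 positions at which the 3 genes are not all alike in capitals.
Atp5g1: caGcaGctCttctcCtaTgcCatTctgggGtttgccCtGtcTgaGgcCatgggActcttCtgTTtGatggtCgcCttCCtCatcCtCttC
Atp5g2: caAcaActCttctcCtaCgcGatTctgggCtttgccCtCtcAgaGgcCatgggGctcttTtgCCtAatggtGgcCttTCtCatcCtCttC
Atp5g3: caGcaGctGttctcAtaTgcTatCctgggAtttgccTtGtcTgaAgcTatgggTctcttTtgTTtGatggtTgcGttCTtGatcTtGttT
The capitals are spread through the whole stretch, and the longest run of identical bases in the mature part was 21 between Atp5g1 and Atp5g2, 11 between Atp5g1 and Atp5g3 and 8 between Atp5g2 and Atp5g3. Ndufb4, a membrane arm subunit of complex I on chromosome 16 (37647602 to 37654368), is the opposite case. Ndufb4c, an intronless copy on chromosome 15 (73809445 to 73809927), matched the 390 coding bases of Ndufb4 at all 390 positions. The first 90 coding bases of each show that no base distinguishes them.
Ndufb4: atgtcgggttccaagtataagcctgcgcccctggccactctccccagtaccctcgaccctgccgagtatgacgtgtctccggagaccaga
Ndufb4c: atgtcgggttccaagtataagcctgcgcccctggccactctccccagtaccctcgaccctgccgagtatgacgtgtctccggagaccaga
Counts of Ndufb4 and Ndufb4c are therefore uncertain as single genes, since the authors' estimated counts could divide shared reads between them.

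The promoters of many of these genes hold sites for a small set of factors. NRF1 and the ETS-family factor GABP, also called NRF2, are known regulators of respiratory chain genes. In RefSeq promoter windows of 300 bases (250 before to 50 after the start, GRCm38.p6), 68 of the 82 genes were matched, with 73 windows. The NRF1 core GCGCANGCGC, a pair of half-sites around A and any base, searched on both strands, was in 18 of these 73 windows (24.7%) and in 4.6% of all 32851 windows. The ETS core CCGGAAG was in 16 (21.9%) against 8.86% of all windows, and the YY1 core AAGATGGCG in 7 (9.59%) against 1.4%; a window could count for more than one motif. The median GC content was 57.3% in the windows of the subunit genes and 52.7% in all windows, and motifs of this base composition are more often met in GC-rich sequence. The NRF1 core was found in 7 of 32 matched genes of complex I, 2 of 3 of complex II, 1 of 5 of complex III, 1 of 13 of complex IV and 6 of 15 of complex V. Stretches around it, written on the strand of the gene in RefSeq (minus in each case, although the deposited table lists Sdha on the plus strand), are shown for 4 genes whose values are given below, with the core in capitals.
Sdha, chr13:74350313-74350353: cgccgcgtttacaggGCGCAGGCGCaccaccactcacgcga
Sdhd, chr9:50603903-50603943: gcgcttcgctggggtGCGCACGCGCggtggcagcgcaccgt
Ndufa5, chr6:24527691-24527731: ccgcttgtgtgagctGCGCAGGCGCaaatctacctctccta
Atp5k, chr5:108434424-108434464: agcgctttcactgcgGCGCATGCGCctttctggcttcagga
These matches describe the letters in the windows, and binding was not measured here.

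None of the respiratory chain genes passed the test between the groups. After removal of genes with low counts, 78 of the 82 were tested together with all other genes, 12033 in total, by edgeR's quasi-likelihood test. At an adjusted p (Benjamini-Hochberg) under 0.05 the number called was 0 of 78, where 0.00831% of all genes tested were called, and DESeq2 also called 0 of 78, where it called 0.233% of all genes. At an unadjusted p under 0.05, 1 of the 78 was lower in the knockout-labelled libraries (2.2% of all genes) and 0 were higher (2.95% of all genes). On CPM values the groups did not overlap for 7 of the 78 genes with lower values in the knockout-labelled libraries (8.97%, where 4.63% of all genes tested did so), and for 3 with higher values (3.85%, where 6.19% of all genes did). The adjusted edgeR p-values of the 78 genes ran from 0.944 to 1.00. The authors' deposited table gave a q-value under 0.05 to 0 of the 82 genes, and the smallest q-value among them was 0.999.

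The fold changes were small, and for most genes their intervals were narrow. The log2 fold changes of knockout-labelled over wild type ran from -0.54 for Cox7a1 to 0.42 for Ndufa4l2, both of low level, with a median of -0.049 against -0.0022 for all genes tested. Values below 0 were found for 53 of the 78 genes (67.9%), against 50.5% of all genes tested. The 95% confidence interval lay within a 1.25-fold change in either direction for 54 of the 78 (69.2%) and within a 1.5-fold change for 75 (96.2%), against 19.3% and 61.7% of all genes. Among genes of at least 20 CPM, these shares were 73.0% and 100% for 74 subunit genes, against 41.4% and 87.6% for 4949 genes. The 3 genes whose interval reached beyond 1.5-fold were Ndufa4l2 (-0.40 to 1.25), Cox7a1 (-1.43 to 0.34) and Atp5s (-0.044 to 0.76), which are among the least abundant. For the other 75 genes a change of 1.5-fold or more thus lay outside the interval of each single gene.

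**Figure D1:**
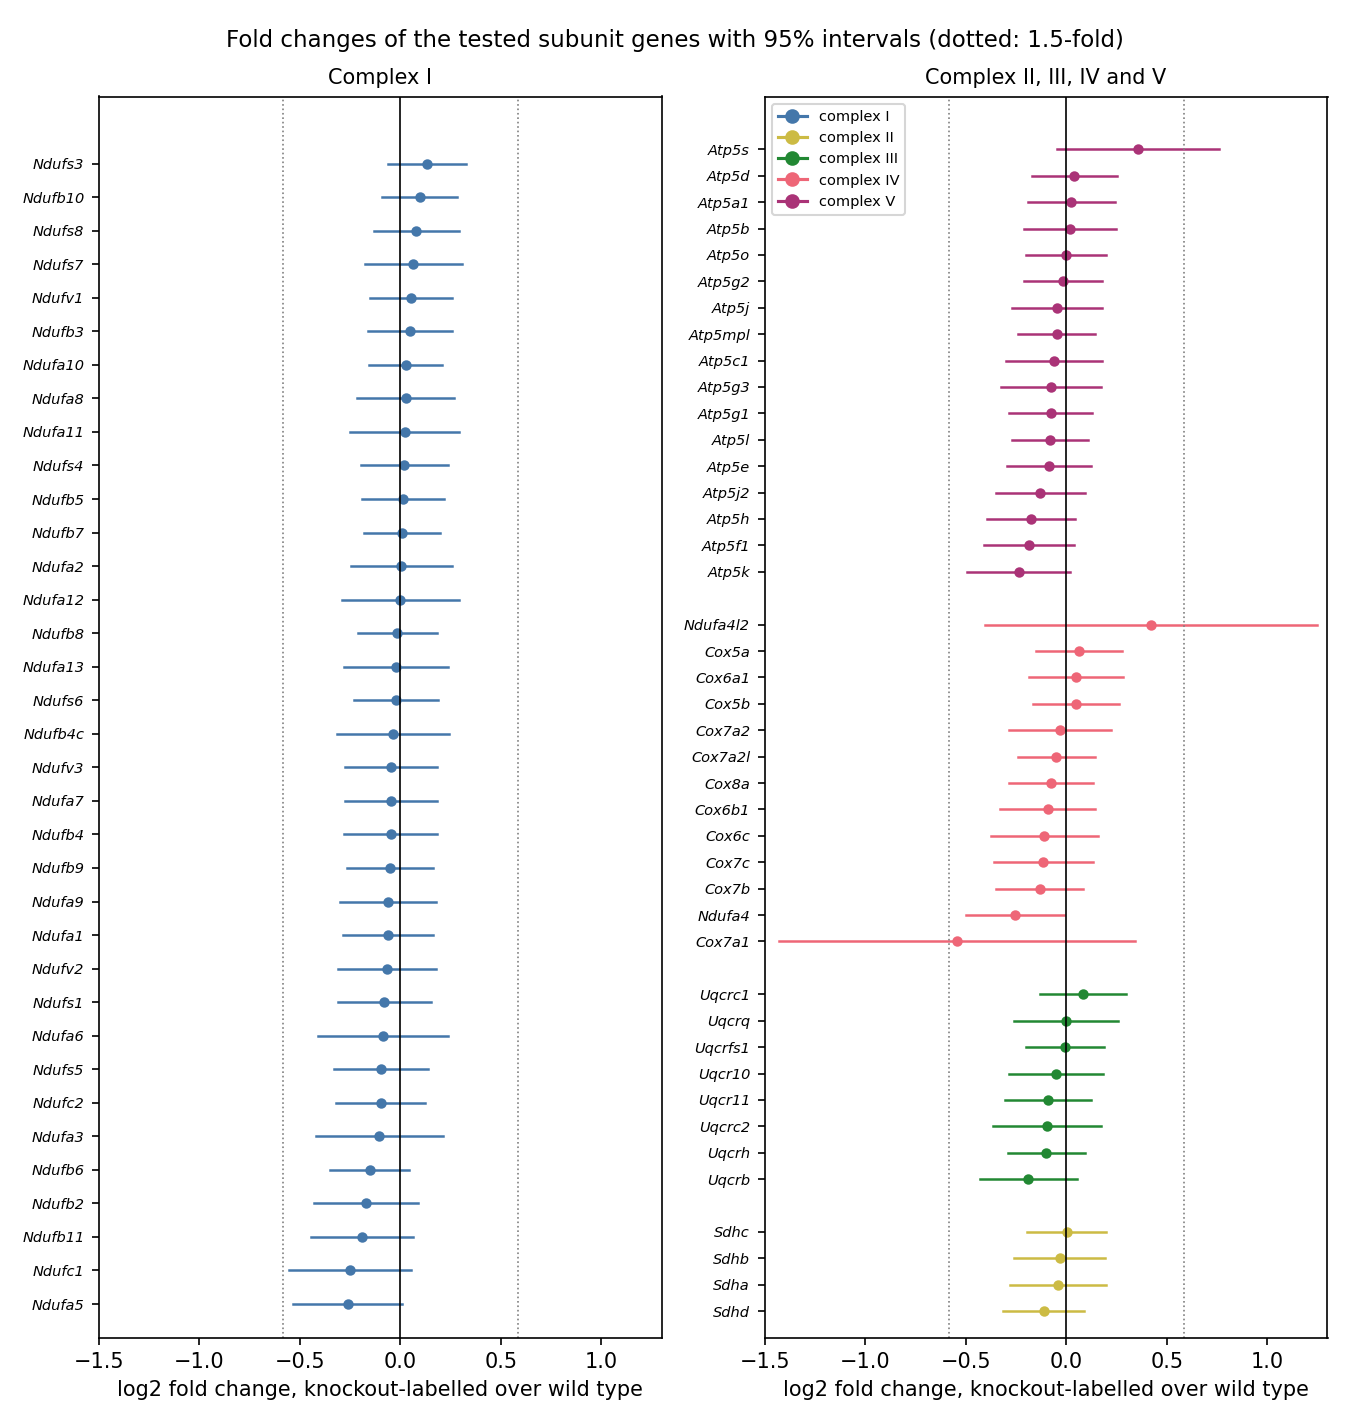
Log2 fold change of knockout-labelled over wild type (x axis) for 77 of the 78 tested subunit genes (y axis), with points for the estimate, lines for the 95% confidence interval, colours for the complex and dotted lines at a 1.5-fold change. The interval of Ndufa4 is the only one that does not reach 0, and those of Cox7a1, Ndufa4l2 and Atp5s are the only ones that pass a dotted line.

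The subunit genes were among the well-expressed genes of the liver. On the TPM scale (transcripts per 1e6 transcripts, which allows for gene length), the highest mean over all libraries was that of Ndufa4, at 1440 ± 122 in wild type and 1096 ± 133 in the knockout-labelled group (SD, n = 3). Atp5b, the catalytic beta subunit of the ATP synthase, stood at 1032 ± 47.6 and 953 ± 84.1 TPM, and Cox7c, a small membrane subunit of complex IV, at 1076 ± 126 and 901 ± 86.7 TPM. The libraries of Atp5b and Cox7c overlapped in TPM, whereas in wild type every library of Ndufa4 lay above those of both. At the other end, 3 tested genes had a mean under 10 TPM: Atp5s at 4.22 ± 0.474 and 5.03 ± 1.07 TPM, Cox7a1 at 4.67 ± 0.0961 and 2.89 ± 1.04 TPM, and Ndufa4l2 at 2.76 ± 0.238 and 3.41 ± 1.97 TPM. All of the remaining tested genes lay above 29 TPM on average in each group, with Ndufa11 the lowest of them at 31.9 ± 5.36 and 29.5 ± 2.86 TPM. The median coefficient of variation within a group was 7.78% in wild type and 5.63% in knockout-labelled libraries for the subunit genes, and 12.9% and 11.1% for all genes tested. Among genes of at least 20 CPM the medians were 8.0% and 5.58% for 74 subunit genes and 9.43% and 7.66% for 4949 genes.

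**Figure D2:**
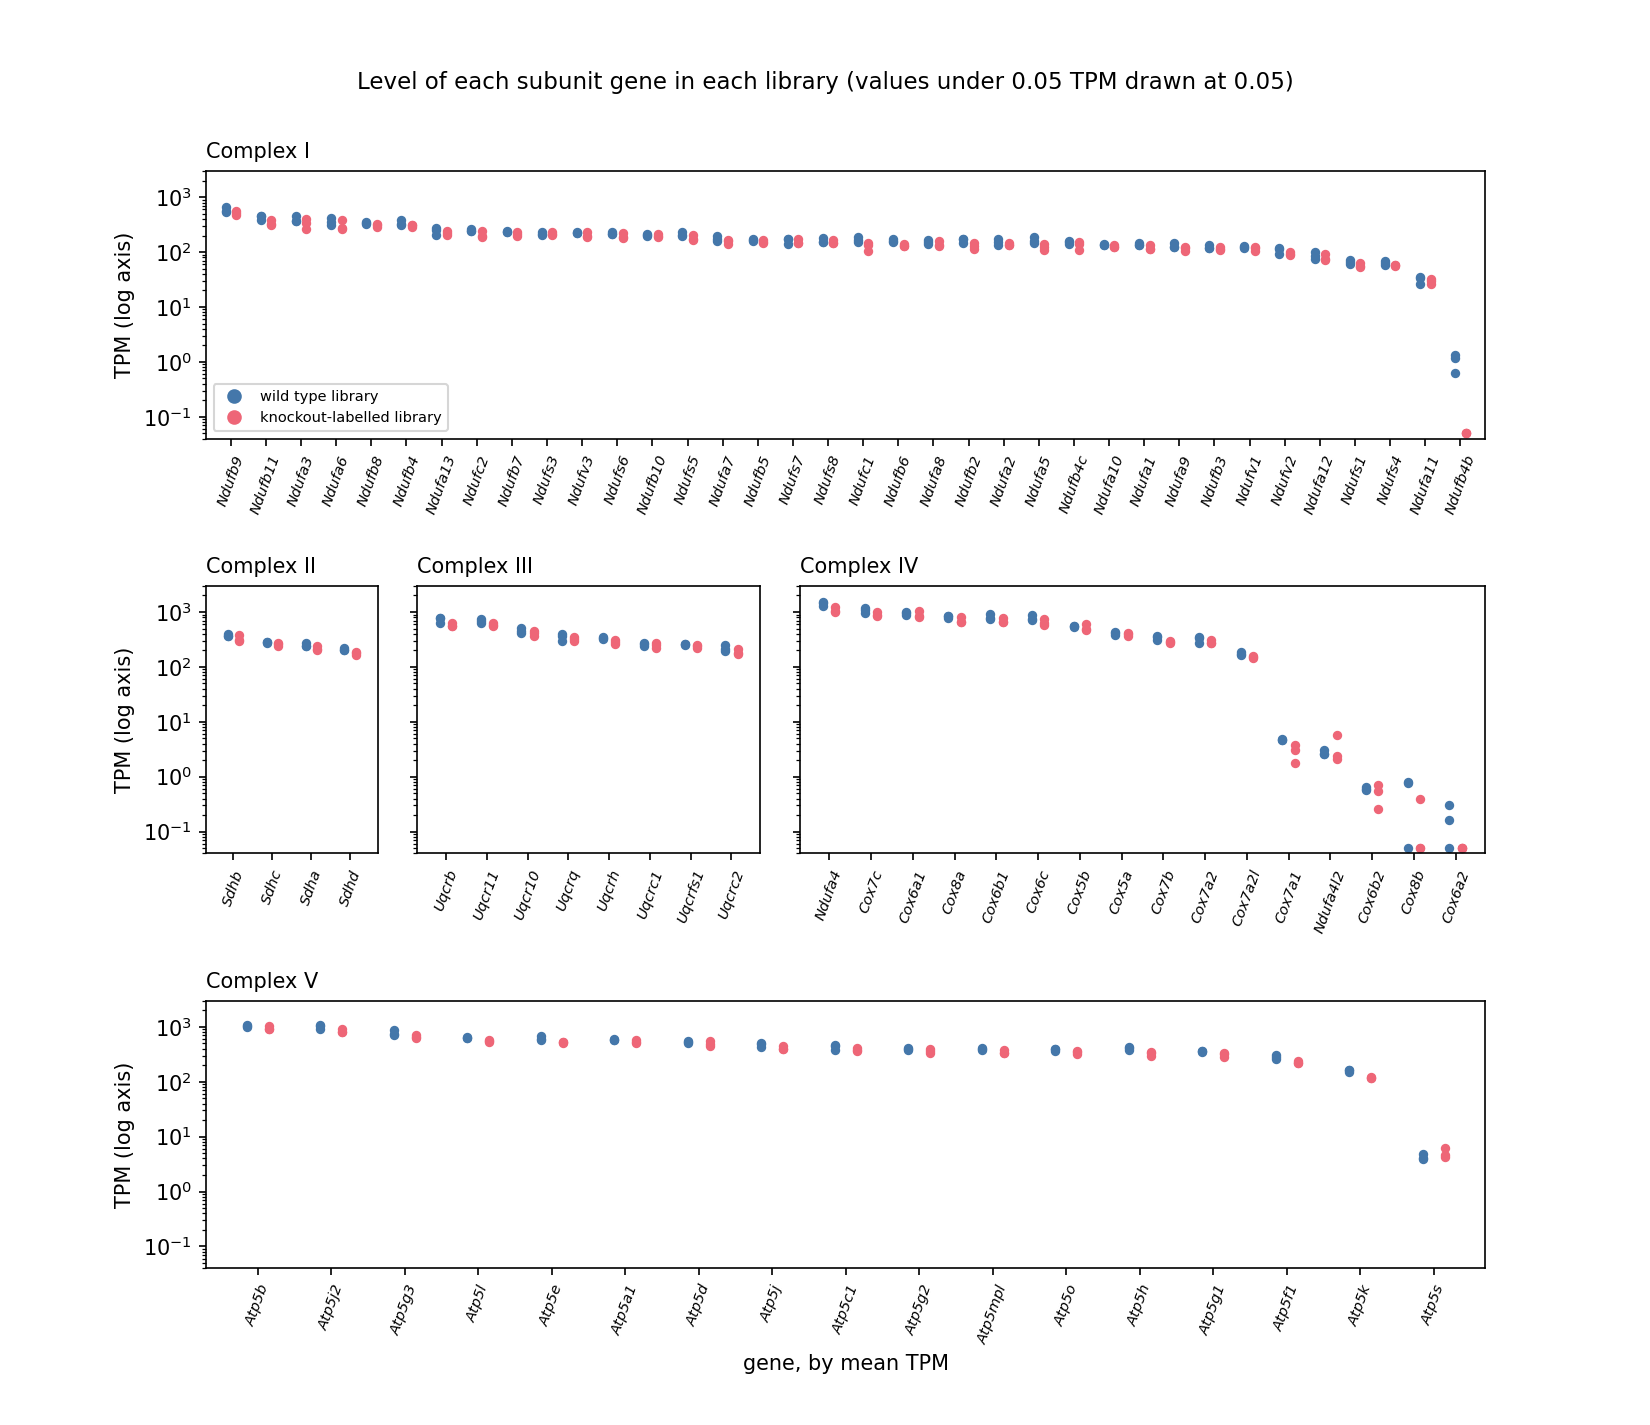
TPM (y axis, log scale) of 81 of the 82 subunit genes (x axis, ordered by mean within each complex) in each library, with blue points for wild type and red points for knockout-labelled libraries; values under 0.05 TPM are drawn at 0.05. Most genes lie between 100 and 1000 TPM, and the isoforms Cox7a1, Ndufa4l2, Cox6b2, Cox8b and Cox6a2, together with Ndufb4b and Atp5s, lie far below.

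Complex I was the largest set, and its 36 tested genes had a median log2 fold change of -0.029, with 22 below 0. Its 7 nuclear core subunits, which carry the flavin and the iron-sulfur clusters, had a median of 0.052 with 2 below 0, and the other 29 had a median of -0.049 with 20 below 0. Scaled by library totals, the core had a median of -0.028 with 6 below 0. As TPM with a pseudocount of 1, it had a median of -0.083 with 7 below 0. Transcripts of the core and of the others differed in length too, with median effective lengths of 1375 and 437 bases. The part of length in the fold changes was not tested. Ndufs1, which holds several of the iron-sulfur clusters, stood at 135, 110 and 118 CPM in wild type and at 122, 112 and 109.9 CPM in knockout-labelled libraries. Ndufv1, the flavin-bearing subunit that binds NADH, stood at 133, 123 and 119.6 CPM and at 130.0, 123 and 137 CPM. The groups overlapped for both genes, with log2 fold changes of -0.080 (SE 0.10) and 0.052 (SE 0.092).

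By position in the complex, the NADH-oxidising arm had a median of -0.035 over 10 genes, the ubiquinone-reducing arm 0.055 over 6 and the membrane arm -0.043 over 20. Median effective transcript lengths of these arms were 424, 707 and 490 bases. When counts were scaled by library totals or compared as TPM, the median log2 fold change of the ubiquinone-reducing arm turned to -0.028 and -0.080 (TPM with a pseudocount of 1). Without wild type replicate 3 the medians of the NADH-oxidising and membrane arms were 0.013 and 0.0021. Ndufs3, a core subunit of that arm (chromosome 2, 90894636 to 90904721), had 115, 125.5 and 117 CPM in wild type and 135, 125.8 and 131 CPM in knockout-labelled libraries. Its groups did not overlap, but by a narrow gap, and the log2 fold change of 0.13 (SE 0.087) had an unadjusted edgeR p of 0.162 and an adjusted p of 0.984. On the TPM scale its log2 fold change was -0.0046. Ndufa5, an accessory subunit of the same arm (chromosome 6, 24518662 to 24527687), had 49.9, 38.7 and 42.1 CPM in wild type and 38.9, 37.5 and 32.5 CPM in knockout-labelled libraries. Wild type replicate 2 and knockout-labelled replicate 1 stood at nearly the same level, and the log2 fold change of -0.26 (SE 0.12) had an edgeR adjusted p of 0.964.

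The membrane arm, which carries the proton channels, held both abundant and scarce members. Ndufb9 had the highest TPM of complex I, at 588 ± 54.0 in wild type and 515 ± 33.9 in knockout-labelled libraries (SD, n = 3), and its log2 fold change of the counts was -0.052 (SE 0.096). Ndufb11, which is X-linked, followed at 429 ± 44.9 and 341 ± 44.2 TPM, with a log2 fold change of -0.19 (SE 0.11). Ndufc1 had 33.6, 26.9 and 29.1 CPM in wild type and 27.2, 27.3 and 21.0 CPM in knockout-labelled libraries, a log2 fold change of -0.25 (SE 0.14). All these groups overlapped. Of the 20 tested genes of this arm, the groups did not overlap for 1 with lower and 1 with higher values in the knockout-labelled libraries. Over all genes tested, 4.63% were lower and 6.19% higher without overlap. The 2 genes were Ndufb6, at 60.4, 53.3 and 56.2 against 51.0, 51.4 and 50.5 CPM, and Ndufb10, at 69.1, 66.5 and 71.2 against 75.3, 72.7 and 72.9 CPM. Their log2 fold changes were -0.15 (SE 0.089) and 0.095 (SE 0.083), and on log2(TPM + 1) that of Ndufb10 was -0.044.

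Ndufb4 and Ndufb4c, the NDUFB4 copies with high estimated counts, had fold changes near 0. As their coding sequences are identical, the division of reads between them is an estimate, and so are the single values and shares below. The log2 fold change was -0.049 (SE 0.10) for Ndufb4 and -0.037 (SE 0.12) for Ndufb4c. Of the summed TPM of the 3 copies, Ndufb4 took 69.1% ± 2.70 in wild type and 69.2% ± 2.29 in the knockout-labelled group, and Ndufb4c 30.7% ± 2.63 and 30.8% ± 2.29 (SD, n = 3). The remaining copy, Ndufb4b, had estimated counts of 4.54, 5.38 and 2.48 in wild type, against 0 in each knockout-labelled library. It was below the filter and was not tested. Per library total it was 4.15-fold lower if the knockout-labelled group is set at a floor of 3 counts. That figure takes the wild type counts as exact, so it is not a lower bound. Its estimated counts are not whole numbers, and how reads were divided between it and the other copies was not tested. In the authors' deposited table its p-value was 0.0236 and its q-value 0.999.

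Complex II, which also serves the tricarboxylic acid cycle as succinate dehydrogenase, had a median log2 fold change of -0.036 over its 4 genes. Sdha, the flavoprotein that oxidises succinate, stood at 530, 449 and 447 CPM in wild type and at 487, 467 and 434 CPM in knockout-labelled libraries, a log2 fold change of -0.039 (SE 0.11). Sdhb, the iron-sulfur subunit, and Sdhc, a membrane anchor, had log2 fold changes of -0.032 (SE 0.10) and 0.0018 (SE 0.088). These groups overlapped. Sdhd, the other membrane anchor (chromosome 9, 50596340 to 50603849), stood at 178, 159 and 160 CPM in wild type and at 155, 149 and 155 CPM in knockout-labelled libraries. Its groups did not overlap, and its log2 fold change of -0.11 (SE 0.091) had an edgeR adjusted p of 0.988.

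Complex III had a median of -0.069 over 8 genes, 6 of them below 0. Uqcrc1, a large core protein of the matrix side, stood at 262, 273 and 282 CPM in wild type and at 307, 267 and 292 CPM in knockout-labelled libraries, a log2 fold change of 0.083 (SE 0.095). Uqcrfs1, the Rieske iron-sulfur protein, had a log2 fold change of -0.0060 (SE 0.087), with an interval of -0.20 to 0.19. Uqcrb, a ubiquinone-binding subunit, had 725 ± 86.1 TPM in wild type and 577 ± 39.9 TPM in the knockout-labelled group, and Uqcr11, a small accessory subunit, had 692 ± 60.9 and 589 ± 47.9 TPM (SD, n = 3). The log2 fold changes of their counts were -0.19 (SE 0.11) and -0.089 (SE 0.095). Uqcrb stood at 187, 150 and 183 CPM against 157, 153 and 146 CPM, with wild type replicate 2 inside the range of the knockout-labelled libraries. Uqcrh, the acidic hinge protein that helps cytochrome c to dock, had groups that did not overlap, at 90.4, 87.0 and 92.2 against 86.8, 85.8 and 79.2 CPM, and a log2 fold change of -0.099 (SE 0.086, edgeR adjusted p 0.988).

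Complex IV held Ndufa4, the 1 gene of the 78 with an unadjusted edgeR p under 0.05. Ndufa4 (chromosome 6, 11900373 to 11907495) had 355, 302 and 342 CPM in wild type and 304, 278 and 254 CPM in knockout-labelled libraries. Wild type replicate 2 lay just below knockout-labelled replicate 1, so the groups overlapped. The log2 fold change was -0.25 (SE 0.11), the interval ran from -0.50 to -0.011, the unadjusted edgeR p was 0.0422 and the adjusted p 0.944. The 13 tested genes of the complex had a median of -0.075, with 9 below 0. Cox5a, a matrix-side subunit, and Cox7c had overlapping groups, with log2 fold changes of 0.063 (SE 0.095) and -0.11 (SE 0.11). Cox4i1, the regulatory subunit 4 that the symbol rule leaves out, averaged 329 ± 3.06 CPM in wild type, against 334 ± 21.0 CPM in the knockout-labelled group (SD, n = 3).

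Several complex IV subunits exist as a general form and a form of muscle or another tissue. Cox6a1, Cox7a2 and Cox8a are the forms of liver, Cox6a2, Cox7a1 and Cox8b those of heart and skeletal muscle, and Cox6b2 that of testis. Cox6a2 had 2, 0 and 1 counts in wild type, against 0 in each knockout-labelled library, Cox8b 2, 0 and 2 against 1, 0 and 0, and Cox6b2 3, 3 and 3 against 1, 3 and 3. A count of 0 allows up to 3 counts, or 0.163 to 0.17 CPM, for counting error only, so that no difference was detectable at this depth. Cox6a1 took at least 99.97% and Cox8a at least 99.9% of the TPM of their pairs in every library. Cox7a1 was counted 12, 13 and 12 times in wild type, against 10, 5 and 9 times in the knockout-labelled group, or 0.939% ± 0.108 and 0.649% ± 0.206 of the COX7A sum (SD, n = 3). Its groups did not overlap, but the log2 fold change of -0.54 (SE 0.40) rested on these few counts, with an edgeR adjusted p of 0.984. Cox7a2 took 64.1% ± 3.52 and 64.6% ± 1.01 of that sum, and Cox7a2l, the remaining gene in it, 35.0% ± 3.43 and 34.7% ± 1.07.

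Ndufa4l2, a relative of Ndufa4 that is known to respond to hypoxia, was counted 27, 32 and 27 times in wild type, against 58, 27 and 24 times in the knockout-labelled group. Knockout-labelled replicate 1 alone was high. The log2 fold change was 0.42 (SE 0.37) with all libraries and -0.11 without that library. The X-linked Cox7b stood at 200.2 ± 17.6 and 183 ± 1.03 CPM, and Cox6b1, which faces the intermembrane space, at 196 ± 20.05 and 184 ± 12.0 CPM (SD, n = 3), with log2 fold changes of -0.13 (SE 0.096) and -0.091 (SE 0.11).

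Complex V differed in median between its parts, which differed in transcript length as well. Median effective transcript length was 1002 bases for the F1 head, 552 for the c-subunit genes and 393 for the peripheral stalk and membrane part. The part of length in the fold changes was not tested. The 5 genes of the catalytic F1 head, set here with its central stalk, had a median log2 fold change of 0.018 with 2 below 0. Of the 3 c-subunit genes, with a median of -0.075, 3 were below 0. The 8 genes of the peripheral stalk and the membrane part had a median of -0.10 with 8 below 0, Atp5o only at -0.00028. Scaled by library totals, these medians were -0.062, -0.15 and -0.19, with all 16 genes below 0. Without wild type replicates 1 and 3, the number below 0 was 1 of 5, 2 of 3 and 6 of 8, and without knockout-labelled replicate 1 the median of the F1 head was -0.025. Atp5b stood at 1336, 1185 and 1240 CPM in wild type and at 1345, 1252 and 1213 CPM in knockout-labelled libraries, a log2 fold change of 0.018 (SE 0.10). Its groups overlapped throughout.

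Among the 8 peripheral stalk and membrane genes, 3 had groups that did not overlap, with lower values in the knockout-labelled libraries. Over all genes tested, 4.63% did so. These parts of the complex were assigned after the values were seen. Atp5f1, the b subunit of the peripheral stalk (chromosome 3, 105942678 to 105960248), stood at 328, 271 and 294 CPM in wild type and at 267, 261 and 256 CPM in knockout-labelled libraries, a log2 fold change of -0.19 (SE 0.10, edgeR adjusted p 0.974). Atp5k, the e subunit that helps ATP synthases to pair as dimers (chromosome 5, 108433253 to 108434378), stood at 15.1, 15.5 and 13.9 CPM and at 12.3, 12.8 and 12.6 CPM, a log2 fold change of -0.24 (SE 0.11, edgeR adjusted p 0.968). Atp5l, the g subunit, stood at 157, 154 and 162 CPM and at 149.8, 148 and 149.6 CPM, a log2 fold change of -0.081 (SE 0.084). In each case the knockout-labelled libraries lay close together and the wild type libraries were more scattered. Atp5j2, the f subunit, was the second most abundant gene of the complex per length, at 1017 ± 84.1 and 843 ± 76.1 TPM, with overlapping CPM values.

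Atp5s, a protein related to coupling factor B that the symbol rule takes in although it is not a structural subunit, stood at 4.19, 4.41 and 4.69 CPM in wild type and at 6.70, 5.17 and 5.18 CPM in knockout-labelled libraries. The groups did not overlap, and the log2 fold change of 0.36 (SE 0.18) had an edgeR adjusted p of 0.973. The 3 c-subunit genes kept nearly the same proportions. Atp5g1 took 23.6% ± 1.65 of their summed TPM in wild type and 23.3% ± 0.636 in the knockout-labelled group, Atp5g2 26.1% ± 1.85 and 26.9% ± 1.31, and Atp5g3 50.3% ± 3.47 and 49.9% ± 1.25 (SD, n = 3). The ranges of all 3 shares overlapped between the groups.

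**Figure D3:**
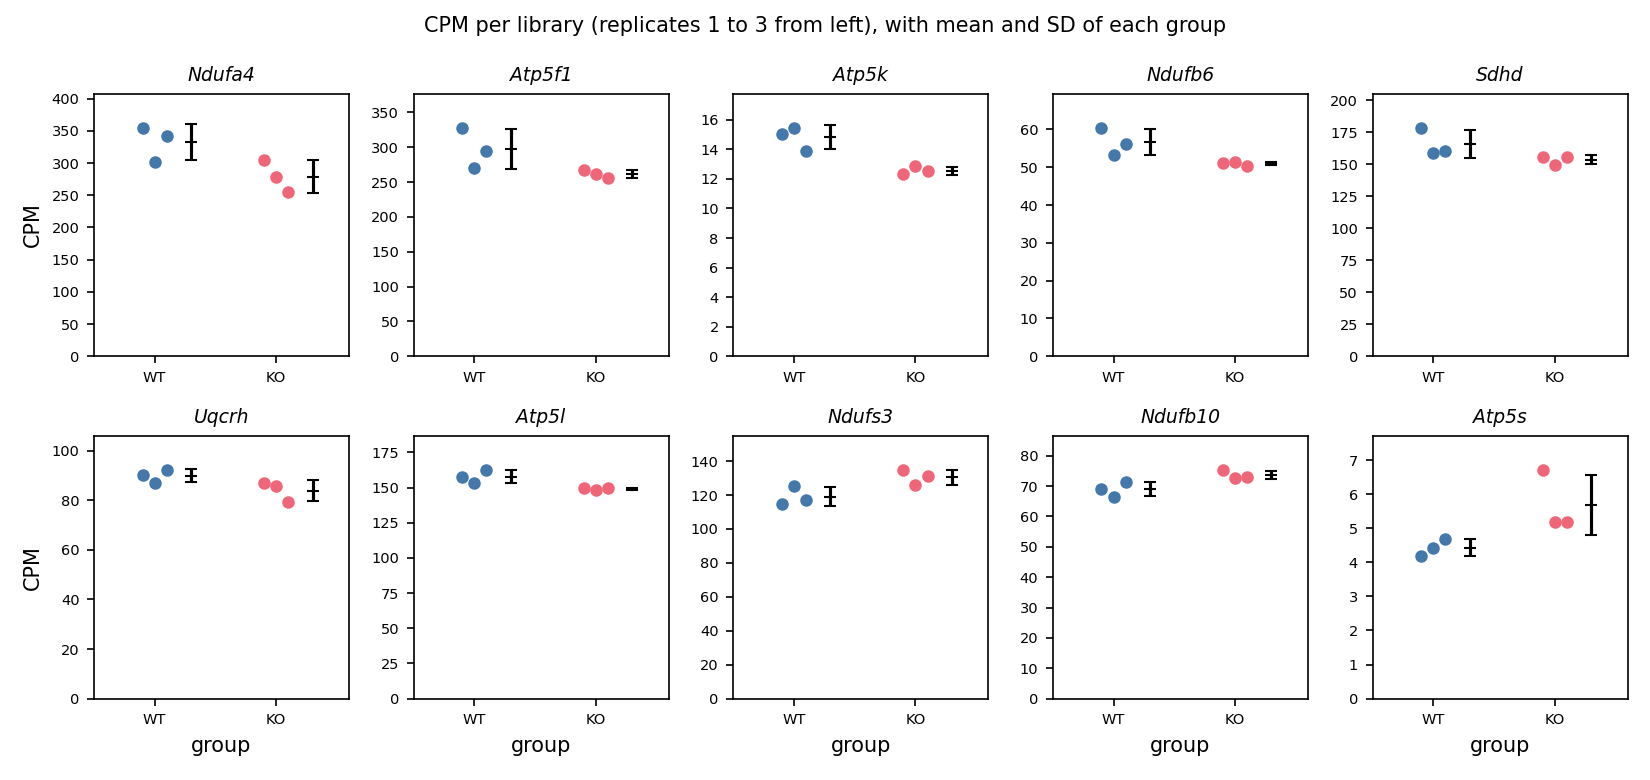
CPM (y axis, from 0) in each library for Ndufa4 and for 9 of the 10 tested subunit genes whose groups did not overlap (Cox7a1, with 5 to 13 counts, is not drawn); points are replicates 1 to 3 from left to right, and bars give the mean and SD (n = 3) of wild type (WT) and knockout-labelled (KO) libraries. The gaps between the groups are small beside the levels, and knockout-labelled replicate 1 stands apart from the other 2 for Atp5s.

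The number of subunit genes whose groups did not overlap depended on the scale. On TPM, 23 were lower (15.3% of all genes tested) and 0 higher (1.44%), and on counts over library totals 17 were lower (11.5% of all genes) and 1 higher (2.28%). The libraries differed in what filled them: the major urinary protein genes, which hepatocytes express at a very high level, took 13.8%, 17.6% and 12.96% of all TPM in wild type, against 13.8%, 25.2% and 24.9% in the knockout-labelled group. The part of these genes in the TPM of the subunits was not tested. The median log2 fold change of all genes tested was -0.11 on log2(TPM + 1) and -0.0022 after TMM scaling of the counts. On log2(TPM + 1) the subunit genes had a median of -0.19, with 76 of 78 below 0. Summed over all 82 genes, the subunits took 2.81%, 2.66% and 2.89% of TPM in wild type, against 2.65%, 2.29% and 2.33% in knockout-labelled libraries, without overlap. After TMM scaling the sum was 1.25% ± 0.0478 of counts in wild type and 1.21% ± 0.0486 in the knockout-labelled group (SD, n = 3), with overlap.

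The subunit genes were not alike in the 3 knockout-labelled libraries. Relative to the wild type mean of each gene, the median log2 level of the 78 genes was 0.0083, -0.054 and 0.028 in wild type replicates 1, 2 and 3, and 0.024, -0.076 and -0.084 in knockout-labelled replicates 1, 2 and 3. Knockout-labelled replicate 1 was the highest library of its group for 57 of the 78 genes, and replicate 3 was the lowest of all 6 libraries for 28. The same order held in complexes I, II and IV, with medians of 0.053, -0.067 and -0.082 in complex I, 0.025, -0.083 and -0.105 in complex II and 0.027, -0.094 and -0.15 in complex IV. In complexes III and V replicate 1 was also highest, at 0.012 and 0.0046, but replicate 2 was lowest, at -0.069 and -0.085. Over all genes, the mean chi-square per gene between knockout-labelled replicate 1 and wild type replicates 1, 2 and 3 was 41.8, 21.7 and 27.2. Against knockout-labelled replicates 2 and 3 it was 67.4 and 81.8. Wild type replicate 2 stood at 47.8 and 33.8 from wild type replicates 1 and 3. From knockout-labelled replicates 2 and 3 it stood at 40.8 and 54.2. Without knockout-labelled replicate 1, the median of the 78 genes was -0.081, with 65 below 0, and the number called was still 0. Leaving out 1 library at a time gave medians from -0.081 to -0.016, the value nearest 0 being that without wild type replicate 3. Without wild type replicates 1 and 3, the median was -0.0074, with 43 below 0.

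**Figure D4:**
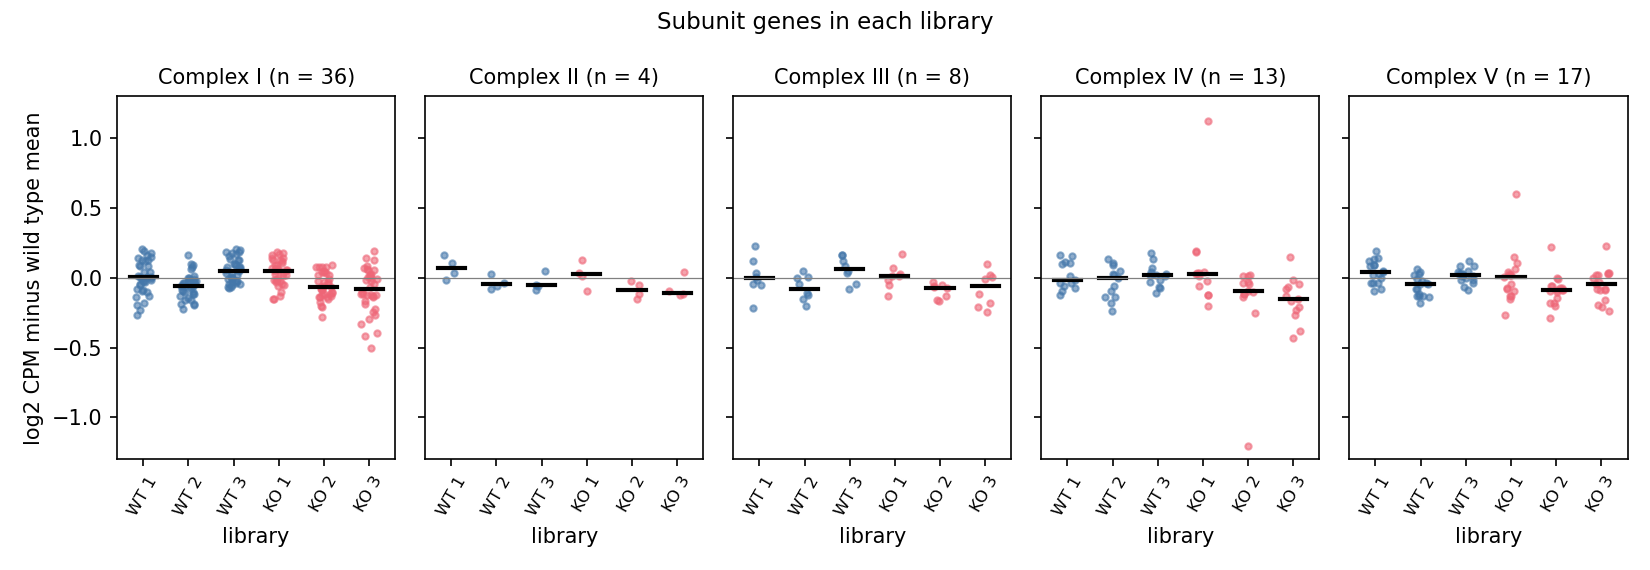
Log2 CPM of each tested subunit gene minus the wild type mean of its log2 CPM (y axis) in each library (x axis), by complex. Points are genes and bars give the median. The bars of knockout-labelled replicate 1 (KO 1) lie above 0 in every complex, and those of KO 2 and KO 3 lie below 0.

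Short transcripts made up much of the set, as many of these subunits are small proteins. The median effective length was 512 bases for the tested subunit genes and 2659 bases for all genes tested. The 37 subunit genes under 500 bases had a median log2 fold change of -0.086 with 32 below 0. All 247 tested genes of that length, these 37 among them, had a median of -0.031 with 57.9% below 0. The 41 subunit genes of 500 bases or more had a median of -0.00028 with 21 below 0. All 11786 tested genes of that length, these 41 among them, had a median of -0.0016 with 50.4% below 0. The values below 0 thus lay mainly among the short subunit genes. Whether short transcripts as such were recovered less well in these libraries was not tested.

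**Figure D5:**
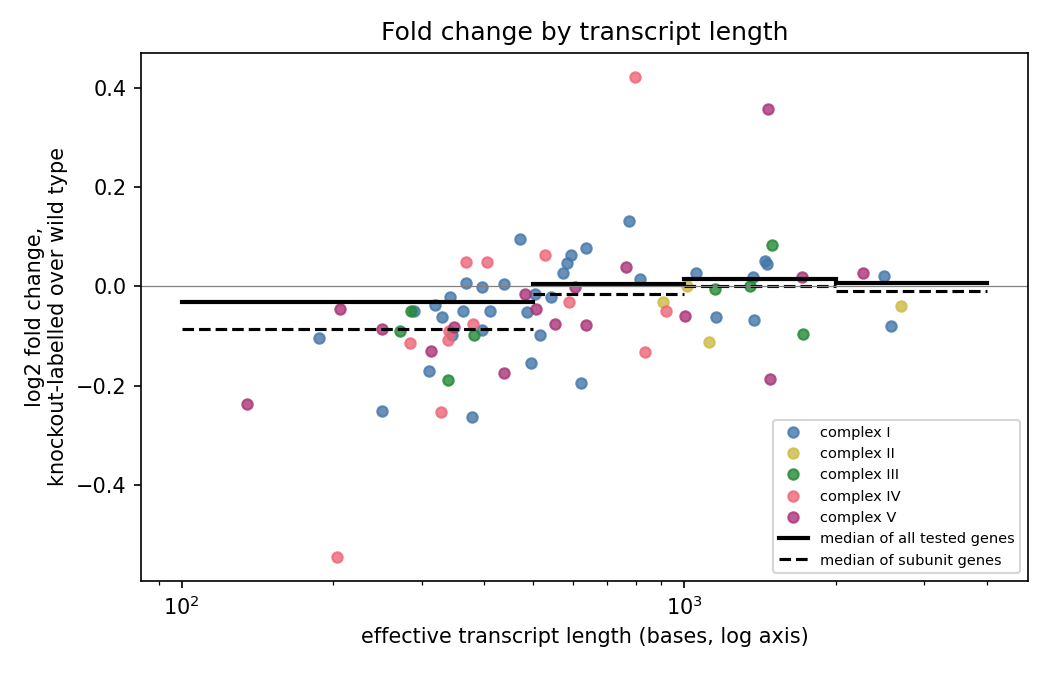
Log2 fold change of knockout-labelled over wild type (y axis) against effective transcript length in bases (x axis, log scale) for the 78 tested subunit genes, coloured by complex; solid bars give the median of all genes tested and dashed bars that of the subunit genes in each of 4 length ranges. Under 500 bases the dashed bar, at -0.086, lies below the solid one, at -0.031, and in the longer ranges both lie near 0.

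Each of 6 further lists of mitochondrial and ribosomal genes gave 0 genes called by edgeR, where 0.00831% of all genes tested were called. Of the assembly factors, which build the complexes without staying in them, 50 were tested, with a median of 0.015 and 22 below 0. Carriers and subunits outside the symbol rule had a median of 0.0023 over 10 genes. Among these, Cycs, which encodes cytochrome c, stood at 182, 143 and 176 CPM in wild type and at 147, 168 and 136 CPM in knockout-labelled libraries, a log2 fold change of -0.15 (SE 0.12). Cyc1, the cytochrome of complex III, had a log2 fold change of 0.093. A list of 18 genes of the tricarboxylic acid cycle and of pyruvate entry (Pdha1, Pdhb, Dlat and Pcx) had a median of -0.013. The 16 regulators of mitochondrial biogenesis had one of 0.050. Ppargc1a, the coactivator that drives mitochondrial biogenesis, stood at 6.13, 5.37 and 5.07 CPM in wild type and at 7.11, 6.16 and 3.86 CPM in knockout-labelled libraries, with overlapping groups. The 78 mitochondrial ribosomal protein genes had a median of -0.0034, with 41 below 0, and 82 tested cytosolic ribosomal protein genes, which are also short (median effective length 559 bases), a median of -0.0047, with 42 below 0. By edgeR at an unadjusted p under 0.05, 1 assembly factor and 1 cytosolic ribosomal gene were lower. So were 2 genes of the list of the tricarboxylic acid cycle and pyruvate entry, and 1 mitochondrial ribosomal gene was higher. Over all genes tested, 2.2% were lower and 2.95% higher.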

How the data were processed

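RNA from 3 mouse liver samples labelled wild type and 3 labelled Cgref1 knockout was sequenced after messenger RNA enrichment, per the labels' protocols. The submitters' processing notes list HISAT, Bowtie2, RSEM and DESeq2 as the authors' tools and name no version, strand setting or genome build. Coordinates are those of the deposited table: all 82 subunit genes lay on the same chromosome, and 49 had the same start, in RefSeq GRCm38.p6. The authors deposited expected counts per gene, not normalized (92.3% to 92.9% whole numbers), and TPM values and FPKM values, per the file headers; FPKM values were not used. Log2 fold changes, p-values and q-values in the authors' deposited table were used only where that table is named. A further 15 columns (group means, comparisons of single libraries) were not used.

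Expected counts were rounded. Genes were kept by edgeR's filterByExpr (minimum count 10), libraries were scaled by TMM (0.955 to 1.05), and the groups were compared over all genes with edgeR 4.0.16 (R 4.3.3), robust quasi-likelihood test, Benjamini-Hochberg threshold 0.05. CPM values were computed from TMM-scaled library sizes, and the biological coefficient of variation was 15.8%. Confidence intervals are at 95%. The steps were tested on simulated data. Alternatives used DESeq2 1.42.0, limma 3.58.1, other scalings and filters, TPM with pseudocounts of 1 and 0.1, a replicate block and left-out libraries; comparing non-overlap on other scales was added after seeing the data. No pair of libraries agreed within sampling noise.

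The subunit genes and the other lists were chosen with earlier results of these data known. Single genes were named by a rule: in each complex the 2 highest by TPM and the 2 with the smallest p, the tissue isoforms and multi-copy subunits, and the catalytic or core subunits. For 1 gene under this rule no single value is reported here; it stayed in the fits and counts. Genes whose groups do not overlap, the NDUFB4 copies and Ndufa11 were named after their values were seen, and the parts of complexes I and V were assigned then too.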

Additional observations from a re-analysis of the deposited data

How the results depend on the processing

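No setting tried called any of the subunit genes. Over all genes, the number called was 1, and it was 28 with DESeq2, 34 with the replicate block, 0 at a mean of at least 5 CPM and 0 without wild type replicates 1 and 3; leaving out 1 library gave 1 to 5, with 5 without knockout-labelled replicate 1. Same-numbered libraries deviated together with correlations of 0.283, 0.06 and 0.348, against -0.3 to -0.006 for libraries of unlike number. Each library thus correlated best with its own number, though only weakly for replicate 2. Deviations from a group mean sum to 0 within the group, so these correlations depend on each other. The labels do not say that equal numbers mark pairs, so the main fit took none and the replicate block served as an alternative. What same-numbered libraries share was not tested.

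The median log2 fold changes of complexes I to V moved with the scale. Library totals gave -0.115, -0.117, -0.151, -0.158 and -0.139. TPM with a pseudocount of 1 gave -0.16, -0.172, -0.207, -0.218 and -0.198, and with 0.1 gave -0.161, -0.172, -0.208, -0.219 and -0.199, where the medians of all genes were -0.106 and -0.13. Leaving out 1 library gave -0.0978 to -0.00665 for complex II, -0.0655 to 0.0102 for complex I, -0.109 to -0.0271 for complex III, -0.133 to -0.0141 for complex IV and -0.0926 to -0.0327 for complex V. Without wild type replicates 1 and 3, complex III stood at 0.00916 and complex V at -0.00865. The cause was not tested.

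Single genes changed sign, none of them called in any setting. Sdhc was at -0.0035 with DESeq2 size factors, -0.00827 with upper-quartile factors, -0.00347 without a filter, -0.000809 at a mean of at least 5 CPM and -0.00348 with DESeq2. Library totals gave -0.062 for Atp5b, -0.0185 for Cox5a, -0.0347 for Cox6a1, -0.0275 for Ndufv1 and -0.0791 for Sdhc. TPM with a pseudocount of 1 (and 0.1) gave -0.117 (-0.117) for Atp5b, -0.0754 (-0.0756) for Cox5a, -0.0945 (-0.0946) for Cox6a1, -0.0443 (-0.0445) for Ndufb10, -0.00458 (-0.0046) for Ndufs3, -0.0834 (-0.084) for Ndufv1, -0.133 (-0.133) for Sdhc and -0.0544 (-0.0546) for Uqcrc1. Without wild type replicates 1 and 3, the values were 0.0457 for Atp5g3, -0.0432 for Cox5a, -0.0661 for Cox6a1, 0.2 for Cox7a2, 0.0573 for Cox7c, 0.042 for Ndufs1, 0.0309 for Sdha, -0.037 for Sdhc, 0.0121 for Uqcr11 and 0.00626 for Uqcrb. With 1 library left out, the ranges that crossed 0 among the genes followed singly (those named by rule and those without overlap) were -0.131 to 0.0198 for Atp5g3, -0.0285 to 0.108 for Cox6a1, -0.135 to 0.033 for Cox7a2, -0.0824 to 0.0393 for Sdha, -0.0279 to 0.0169 for Uqcrfs1, -0.0246 to 0.0598 for Atp5b, -0.0434 to 0.02 for Atp5g2, -0.103 to 0.0153 for Ndufb9, -0.0286 to 0.0276 for Sdhc, -0.106 to 0.668 for Ndufa4l2 and -0.119 to 0.0109 for Sdhb.

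Cox6a2, Cox6b2, Cox8b, Ndufb4b and Cox7a1 had at most 13 counts in a library, Ndufa4l2 at most 58 and Atp5s at most 115, so depth limits what their values can show.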
